A study of Mus musculus with 12 samples.

Results

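The genes described here are 8 genes of dead cell clearance: the ligands Gas6 and Pros1, their receptors Mertk, Axl and Tyro3, the bridging protein Mfge8, and the phosphatidylserine receptors Timd4 and Stab1. They were chosen as the probe sets with a single gene symbol among these 8, and all 8 were measured, each by 1 probe set, of 19937 genes in all. RNA was measured on Affymetrix arrays in bone marrow progenitors sorted at day 14 after intraperitoneal pIpC. LSK cells (Lin- Sca1+ c-kit+) hold stem cells and multipotent progenitors, while granulocyte and macrophage progenitors (GMP) were gated as Lin- Sca1- c-kit+ CD34+ FcγR+. LSK KO and GMP KO came from mice labelled C57BL6 Mx1-Cre wt/wt;Lamtor2f/f, and LSK WT and GMP WT from C57BL6 Mx1-Cre wt/wt mice with wild-type Lamtor2, with 3 arrays in each of the 4 groups. All 4 groups received pIpC, and no age of the mice is given. The labels name Mx1-Cre wt/wt in all 4 groups, and they do not say whether the WT mice carried the Cre transgene. The Mx1 promoter that drives Cre responds to interferon, so the deletion is not limited to the sorted cells. Lamtor2 encodes a subunit of Ragulator, a complex on lysosomes that takes part in mTORC1 signalling.

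A dying cell moves the lipid phosphatidylserine to the outer face of its membrane, and phagocytes recognise it there. Gas6 and protein S (Pros1) carry vitamin K-dependent carboxylated residues that bind this lipid, and they bridge it to the receptor tyrosine kinases Tyro3, Axl and Mertk, together called TAM receptors. In bone marrow, macrophages clear dying cells and the nuclei that erythroblasts expel, and Mertk and Axl signals also restrain the inflammatory responses of macrophages and dendritic cells.

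The values are log2 intensities, with array medians between 5.96 and 6.18. Lamtor2 read 5.11, 5.40 and 5.77 on the LSK KO arrays, against 10.39, 10.48 and 10.31 in LSK WT, and 4.95 to 5.53 in GMP KO, against 10.61 to 10.82 in GMP WT. A deleted gene thus still read up to 5.77. This comes from 1 probe set, and others read lower (Gulp1 averaged 3.10 in GMP KO), so 5.77 is only a rough guide. A difference in which either group mean lies at or below that level is given as measured, and the true difference may be larger. Replicate 1 of GMP KO stood apart, with a mean correlation of 0.979 with the rest of its group and an array weight of 0.19, where the other 11 weights lay between 0.68 and 2.15. Replicates 2 and 3 of GMP KO also correlated less (0.985 and 0.986) than the arrays of the other groups (0.993 to 0.996). Results that rest on replicate 1 of GMP KO are given with and without it. In WT the sorted cells carried the marker patterns of their labels. Of 10 LSK markers measured, 9 were higher in LSK WT than in GMP WT, where 10.3% of all genes were. Of 12 GMP markers 11 were lower, where 9.32% of all genes were. Both lists hold genes of the sort gates (Kit and Cd34 for LSK, Fcgr2b and Fcgr3 for GMP). These counts are thus not independent of the sort. Replicates are samples from separate mice per the labels, and which LSK and GMP samples share a mouse is not stated.

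The promoter windows of Gas6, Mertk, Axl and Stab1, which rose in GMP KO, and of Pros1, which fell there, are shown because these genes carry the comparison. The sequences are from RefSeq on build GRCm38.p6 and run 5′ to 3′ on the strand of the gene, from 250 bases before an annotated start to 50 bases after it. That start lies inside the annotated span of the gene for Axl, Stab1, Tyro3 and Timd4. For the other members it is the 5′ end of the span. The Gas6 window lies at chr8:13494486-13494785 on the minus strand, that of Pros1 at chr16:62854057-62854356 on the plus strand, that of Mertk at chr2:128698665-128698964 on the plus strand, that of Axl at chr7:25788684-25788983 on the minus strand and that of Stab1 at chr14:31168592-31168891 on the minus strand. Capitals mark the GC box GGGCGG or its reverse complement CCGCCC.
Gas6: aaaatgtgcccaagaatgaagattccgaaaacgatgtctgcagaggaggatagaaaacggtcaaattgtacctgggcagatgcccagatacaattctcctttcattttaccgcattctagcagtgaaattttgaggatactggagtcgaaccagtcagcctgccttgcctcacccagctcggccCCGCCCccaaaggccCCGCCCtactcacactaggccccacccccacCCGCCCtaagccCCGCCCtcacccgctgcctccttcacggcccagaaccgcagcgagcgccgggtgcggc
Pros1: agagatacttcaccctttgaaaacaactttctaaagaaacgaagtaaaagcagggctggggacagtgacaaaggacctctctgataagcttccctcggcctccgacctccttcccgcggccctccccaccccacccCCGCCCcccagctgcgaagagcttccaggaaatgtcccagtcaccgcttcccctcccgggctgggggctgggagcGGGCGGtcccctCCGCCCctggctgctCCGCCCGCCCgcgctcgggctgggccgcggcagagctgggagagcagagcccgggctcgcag
Mertk: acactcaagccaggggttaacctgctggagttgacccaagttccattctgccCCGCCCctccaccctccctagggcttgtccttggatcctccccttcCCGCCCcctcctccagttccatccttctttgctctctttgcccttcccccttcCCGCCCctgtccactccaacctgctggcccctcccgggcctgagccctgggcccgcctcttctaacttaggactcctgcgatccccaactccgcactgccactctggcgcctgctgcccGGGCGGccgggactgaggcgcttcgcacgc
Axl: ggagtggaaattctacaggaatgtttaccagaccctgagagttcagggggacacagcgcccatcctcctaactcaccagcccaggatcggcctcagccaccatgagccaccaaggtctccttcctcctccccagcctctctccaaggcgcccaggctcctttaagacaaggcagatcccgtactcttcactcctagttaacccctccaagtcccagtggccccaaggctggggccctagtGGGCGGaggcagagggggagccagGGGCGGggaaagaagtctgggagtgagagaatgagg
Stab1: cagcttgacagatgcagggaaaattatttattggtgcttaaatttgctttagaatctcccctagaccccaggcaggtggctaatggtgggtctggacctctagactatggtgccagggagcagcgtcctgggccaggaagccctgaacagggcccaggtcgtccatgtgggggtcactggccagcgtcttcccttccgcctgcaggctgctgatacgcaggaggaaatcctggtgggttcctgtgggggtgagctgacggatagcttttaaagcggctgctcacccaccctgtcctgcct

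The GC box was found in 6 of the 8 windows, and 35.7% of all 32851 windows held it. Tyro3 had 6 copies, Pros1 5, Gas6, Mertk and Mfge8 4 each and Axl 2, and the windows of Timd4 and Stab1 had none. The GC content was 58.3% in Gas6, 66.7% in Pros1, 66.0% in Mertk, 60.3% in Axl and 57.3% in Stab1, with a median of 52.7% over all windows. The other 6 motifs searched on both strands were the E-box CACGTG (in 7.15% of all windows), the lysosomal gene element TCACGTGA, which contains the E-box (0.974%), the M-box TCATGTG (3.77%), the AP-1 site TGACTCA (5.2%), the PU.1 site GAGGAAGT (3.2%) and the MAF core TGCTGAC (4.67%). The windows not shown are those of Mfge8 (chr7:79149011-79149310, minus strand), Tyro3 (chr2:119799264-119799563, plus strand) and Timd4 (chr11:46810549-46810848, plus strand). Among the 8 windows the 6 motifs gave 1 match, TGCTGAC in Timd4.

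Gas6, the ligand with the highest affinity for Axl, rose in both cell types. It was measured at 8.52, 9.14 and 9.12 in GMP KO, against 5.34, 5.60 and 5.74 in GMP WT, so the lowest KO value lay well above the highest WT value. Its mean was 8.93 ± 0.36 in GMP KO and 5.56 ± 0.20 in GMP WT (SD, n = 3 each). The rise was 3.37 on the log2 scale (SE 0.18, 95% interval 2.98 to 3.75), or 10.3-fold as measured (limma adjusted p = 1.32e-07). Leaving out replicate 1 of GMP KO gave a rise of 3.57. In LSK the values were 6.84, 7.32 and 7.36 in KO, against 6.58, 6.47 and 6.42 in WT, again without overlap but much closer together. Gas6 averaged 7.17 ± 0.29 in LSK KO and 6.49 ± 0.08 in LSK WT (SD, n = 3 each) and rose by 0.68 (SE 0.18, limma adjusted p = 0.0474). The call in LSK lay near the threshold and held in 14 of 22 alternatives (highest limma adjusted p = 0.185).

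The order of the Gas6 levels was GMP KO, LSK KO, LSK WT and GMP WT, and no 2 neighbours in that order overlapped. In WT, LSK was 0.93 (SE 0.18) above GMP, or 1.90-fold as measured (limma adjusted p = 0.00198), whereas in KO the GMP arrays were the higher ones. The interaction, the KO effect in LSK minus that in GMP, was -2.68 (SE 0.25, 95% interval -3.23 to -2.14, limma adjusted p = 1.82e-04), and it stayed past the threshold in all 21 alternatives, between -2.96 and -2.51.

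Pros1, protein S, is the other TAM ligand and activates Tyro3 and Mertk. It had 5.23, 5.61 and 5.91 in GMP KO, against 6.40, 6.39 and 6.04 in GMP WT, and the highest KO array lay just below the lowest WT array. The means were 5.58 ± 0.34 in GMP KO and 6.28 ± 0.20 in GMP WT (SD, n = 3 each), and Pros1 fell by 0.69 (SE 0.16, limma adjusted p = 0.0108). The call was lost without replicate 2 of GMP WT (limma adjusted p = 0.0543) and when only the 6 GMP arrays were fitted (0.0504), and over the 22 alternatives the adjusted p ran from 0.00306 to 0.0543. Without replicate 1 of GMP KO, Pros1 fell by 0.52. Pros1 thus moved opposite to Gas6 in GMP.

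In LSK, Pros1 had 5.26, 5.62 and 5.64 in KO, against 5.86, 5.79 and 5.91 in WT. The 2 groups did not overlap, but the log2 fold change of -0.35 (SE 0.16, 95% interval -0.70 to 0.0034) did not pass (limma adjusted p = 0.320). The order of the levels was GMP WT, LSK WT, GMP KO and LSK KO. GMP WT lay above LSK WT without overlap, LSK WT and GMP KO overlapped, and so did GMP KO and LSK KO.

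**Figure D1:**
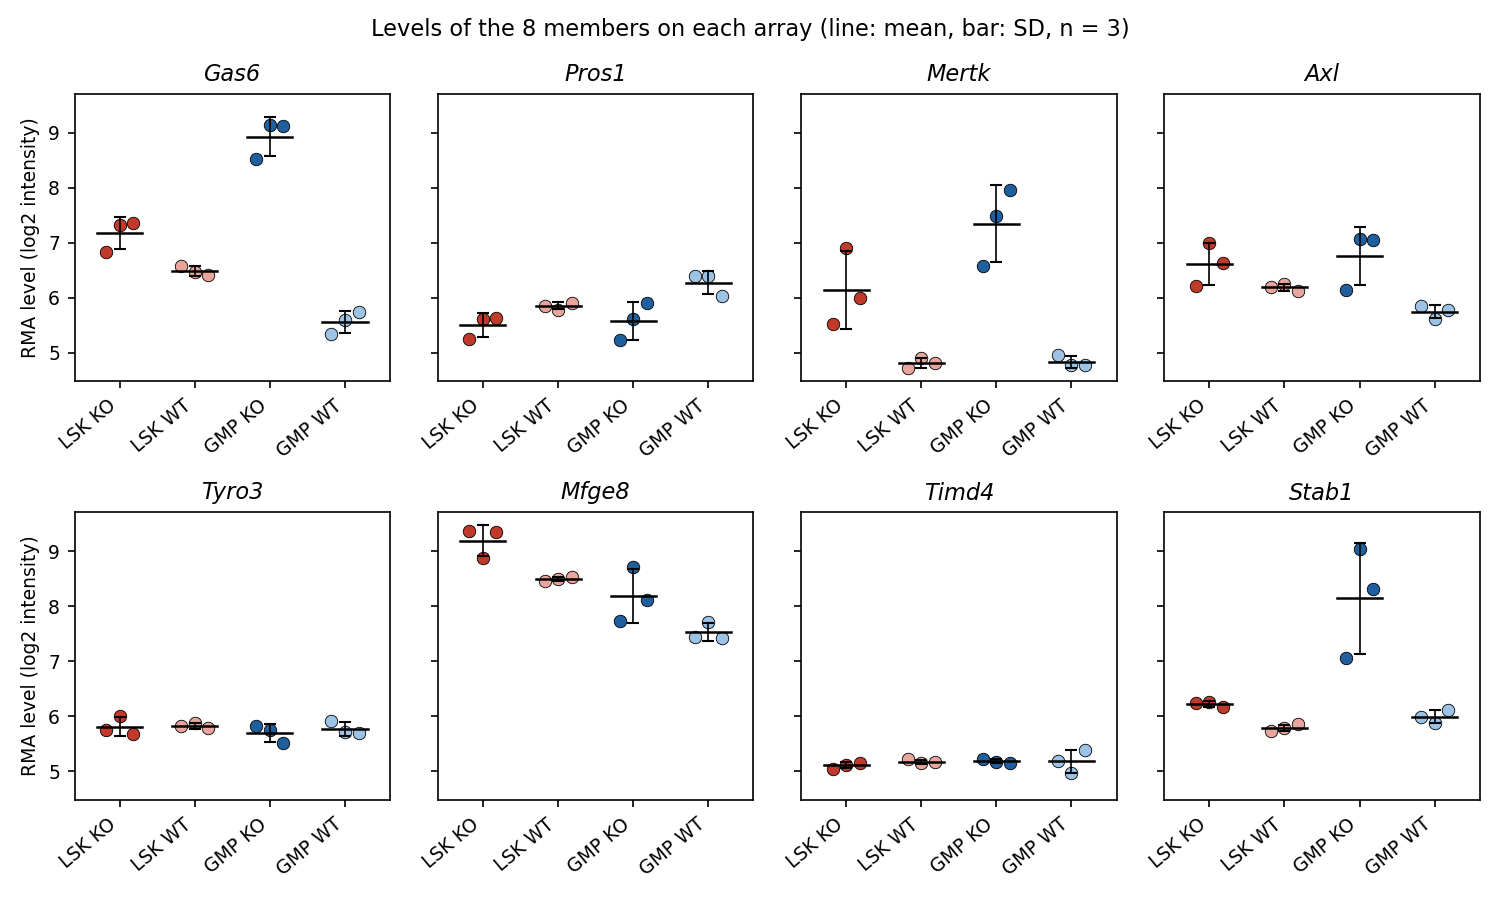
Log2 intensity of the 8 genes on each of the 12 arrays, by group, with the group mean as a line and the SD as a bar (n = 3). Gas6 read 8.52 to 9.14 in GMP KO and 5.34 to 5.74 in GMP WT, while Timd4 read between 4.98 and 5.38 in all 4 groups.

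Among the receptors, Mertk, the TAM receptor most tied to engulfment by macrophages, was higher in KO in both cell types. It had 6.58, 7.49 and 7.96 on the GMP KO arrays, against 4.96, 4.78 and 4.78 in GMP WT. All 3 GMP WT arrays lay no higher than a deleted gene did, while every GMP KO array lay above it. Mertk averaged 7.35 ± 0.70 in GMP KO and 4.84 ± 0.11 in GMP WT (SD, n = 3 each). It rose by 2.51 (SE 0.33, 95% interval 1.80 to 3.21), or 5.68-fold as measured (limma adjusted p = 2.36e-04). The rise was 2.89 when replicate 1 of GMP KO was left out.

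In LSK, Mertk had 5.52, 6.91 and 6.00 in KO, against 4.72, 4.90 and 4.82 in WT. The KO arrays were spread widely and the WT arrays tightly, with no overlap. The means were 6.14 ± 0.71 in LSK KO and 4.81 ± 0.09 in LSK WT (SD, n = 3 each). Mertk thus rose by 1.33 (SE 0.33, limma adjusted p = 0.0368), or 2.51-fold as measured. Replicate 2 was the highest LSK KO array for Mertk, and without it the rise was 0.94 with a limma adjusted p of 0.131. Over 22 alternatives the adjusted p in LSK ran from 0.00417 to 0.131.

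The order of the Mertk levels was GMP KO, LSK KO, GMP WT and LSK WT, with overlap between both KO groups and between both WT groups. LSK WT minus GMP WT was -0.03, with both means below the highest reading of a deleted gene (limma adjusted p = 0.975). The interaction was -1.18 (SE 0.47, 95% interval -2.18 to -0.17) and did not pass (limma adjusted p = 0.152). Without replicate 1 of GMP KO it was -1.56 and passed (limma adjusted p = 0.0219), and over 21 alternatives the adjusted p ran from 4.38e-04 to 0.307.

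Axl, the receptor that inflammatory signals induce in dendritic cells and macrophages, had 6.14, 7.07 and 7.06 in GMP KO, against 5.85, 5.62 and 5.78 in GMP WT. Replicate 1 of GMP KO lay nearest to the WT arrays, and the groups did not overlap. Axl averaged 6.76 ± 0.53 in GMP KO and 5.75 ± 0.12 in GMP WT (SD, n = 3 each). It rose by 1.01 (SE 0.23), or 2.01-fold as measured (limma adjusted p = 0.00815). Leaving out replicate 1 of GMP KO gave 1.32.

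In LSK, Axl read 6.22, 6.99 and 6.63 in KO, against 6.19, 6.25 and 6.13 in WT. These overlapped, since replicate 1 of LSK KO lay below replicate 2 of LSK WT, and the difference of 0.42 (SE 0.23, 95% interval -0.07 to 0.91) did not pass (limma adjusted p = 0.412). The order of the levels was GMP KO, LSK KO, LSK WT and GMP WT, and of the neighbours in it LSK WT and GMP WT alone did not overlap. The interaction of -0.59 (SE 0.32) did not pass (limma adjusted p = 0.312). Without replicate 1 of GMP KO it was -0.90 (limma adjusted p = 0.0236), and over 21 alternatives the adjusted p ran from 0.00321 to 0.547.

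Tyro3, the TAM receptor best known from neurons and platelets, did not pass in either cell type. Its 12 values lay between 5.51 and 6.01. The KO arrays read 5.82, 5.76 and 5.51 in GMP, against 5.92, 5.71 and 5.70 in WT, and 5.75, 6.01 and 5.68 in LSK, against 5.82, 5.88 and 5.78 in WT. The difference was -0.08 in GMP (95% interval -0.33 to 0.17, limma adjusted p = 0.721) and -0.01 in LSK (-0.26 to 0.23, limma adjusted p = 0.978). All 4 groups overlapped, and the sign turned with the scaling in LSK.

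Mfge8, a secreted protein that bridges phosphatidylserine to the αv integrins on phagocytes, was higher in LSK than in GMP. In LSK it read 9.37, 8.87 and 9.34 in KO, against 8.46, 8.50 and 8.53 in WT. The means were 9.20 ± 0.28 in LSK KO and 8.49 ± 0.04 in LSK WT (SD, n = 3 each), a difference of 0.70 (SE 0.20, 95% interval 0.27 to 1.14), or 1.63-fold, which did not pass (limma adjusted p = 0.0719). Without replicate 1 of GMP KO, which enters through the shared variance, it passed (limma adjusted p = 0.0160), and over 22 alternatives the adjusted p ran from 0.00575 to 0.235.

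In GMP, Mfge8 read 7.74, 8.72 and 8.11 in KO, against 7.45, 7.72 and 7.43 in WT. The lowest KO array lay just above the highest WT array. Mfge8 averaged 8.19 ± 0.49 in GMP KO and 7.53 ± 0.16 in GMP WT (SD, n = 3 each) and rose by 0.65 (SE 0.20, limma adjusted p = 0.0429). This call was lost in 13 of 22 alternatives (highest limma adjusted p = 0.129). Without replicate 2 of GMP KO the rise was 0.39, while without replicate 1 of GMP KO it was 0.88. The effect was of similar size in both cell types, with an interaction of 0.05 (95% interval -0.57 to 0.67, limma adjusted p = 0.946).

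The Mfge8 levels were highest in LSK KO, then in LSK WT, then in GMP KO and lowest in GMP WT, and of these neighbours LSK WT and GMP KO overlapped and the others did not. In WT, LSK was 0.96 (SE 0.20) above GMP, or 1.94-fold (limma adjusted p = 0.00376), and this difference passed in all 22 alternatives, as did that of Gas6.

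Stab1, stabilin-1, is a scavenger receptor of sinusoidal endothelium and of some macrophages that takes up phosphatidylserine-bearing cells. It was measured at 7.05, 9.05 and 8.32 in GMP KO, against 5.99, 5.87 and 6.11 in GMP WT. Replicate 1 was the lowest of the widely spread KO arrays, and all 3 lay above every WT array. Stab1 averaged 8.14 ± 1.01 in GMP KO and 5.99 ± 0.12 in GMP WT (SD, n = 3 each), a rise of 2.15 (SE 0.33, 95% interval 1.43 to 2.87), or 4.44-fold (limma adjusted p = 7.86e-04). The rise was 2.70 when replicate 1 of GMP KO was left out. The interval rests on a variance shared by the 4 groups. Stab1 had an SD of 1.01 in GMP KO and of at most 0.12 in the others, so the interval understates the GMP KO spread. Mertk, Axl and Mfge8 share this limit in GMP. Their SDs were 0.70, 0.53 and 0.49 in GMP KO, against 0.11, 0.12 and 0.16 in GMP WT.

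In LSK, Stab1 had 6.25, 6.26 and 6.16 in KO, against 5.74, 5.78 and 5.86 in WT. The groups did not overlap, and the difference of 0.43 (SE 0.33, 95% interval -0.29 to 1.15) did not pass (limma adjusted p = 0.627), in a fit whose error includes the wide GMP KO spread. In a fit of the 6 LSK arrays alone it passed (limma adjusted p = 0.0150), and over 22 alternatives the adjusted p ran from 0.0150 to 0.779. The order of the Stab1 levels was GMP KO, LSK KO, GMP WT and LSK WT, with no overlap between neighbours, the nearest being GMP WT (5.87 to 6.11) and LSK WT (5.74 to 5.86).

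The interaction of Stab1 was -1.72 (SE 0.47, 95% interval -2.74 to -0.70, limma adjusted p = 0.0406). It passed in 9 of 21 alternatives, the adjusted p running from 1.45e-04 without replicate 1 of GMP KO to 0.104 without replicate 2 of GMP WT.

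Timd4, the phosphatidylserine receptor of resident peritoneal and other tissue macrophages, read between 4.98 and 5.38 on all 12 arrays, within the range of a deleted gene. The KO arrays read 5.22, 5.18 and 5.15 in GMP, against 5.18, 4.98 and 5.38 in WT, and 5.05, 5.12 and 5.16 in LSK, against 5.22, 5.14 and 5.17 in WT. The difference was 0.0016 in GMP (95% interval -0.22 to 0.22, limma adjusted p = 0.995) and -0.07 in LSK (-0.29 to 0.15, limma adjusted p = 0.851), and its direction turned in GMP with the scaling.

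**Figure D2:**
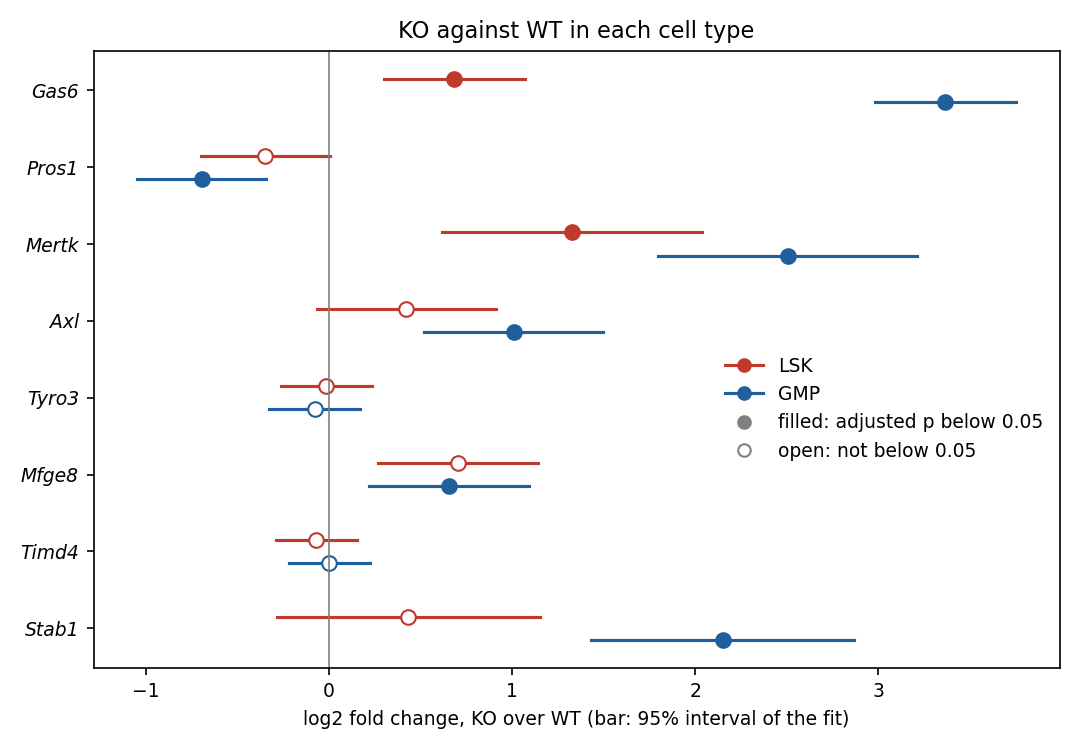
Log2 fold change of KO over WT for each gene in LSK and in GMP, with the 95% interval of the fit. Filled points passed at an adjusted p of 0.05, as Gas6 did in LSK (0.68) and in GMP (3.37), and open points did not.

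Counted together, 6 of the 8 genes passed in GMP, 5 higher in KO (Gas6, Mertk, Stab1, Axl and Mfge8) and 1 lower (Pros1), where 16.1% of all genes passed, 5.78% higher and 10.3% lower. In LSK 2 of 8 passed, both higher (Gas6 and Mertk), where 4.44% of all genes passed, 2.49% higher and 1.96% lower. The members' median log2 fold change was 0.83 in GMP and 0.43 in LSK, against 0.01 and -0.01 over all genes. The 3 KO and 3 WT arrays did not overlap for 6 of 8 genes in GMP, 5 of them higher. Of all 19937 genes, 29.6% did not overlap there, 2402 genes being higher and 3499 (17.6%) lower. In LSK the arrays did not overlap for 5 of 8 genes, 4 of them higher (25.5% of all genes, 12.4% higher and 13.2% lower). The interaction passed for 2 of 8, both negative, where 7.98% of all genes passed, 5.34% positive and 2.64% negative. The difference of LSK WT from GMP WT passed for 2 of 8 (Gas6 and Mfge8, both higher in LSK), where 19.6% passed, 10.3% higher and 9.32% lower. LSK WT and GMP WT did not overlap for 5 of 8, 3 higher and 2 lower, where 40.6% of all genes did not, 19.1% higher and 21.5% lower. The members were chosen with earlier results of these data known, so these counts are a description and no test of the set.

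In GMP the calls of Gas6, Mertk, Axl and Stab1 held in all 22 alternatives. In LSK leaving out any of replicates 2 and 3 of LSK KO, the 3 LSK WT arrays or the 3 GMP WT arrays ended the calls of both Gas6 and Mertk, with a highest limma adjusted p of 0.185 for Gas6. With 3 arrays against 3, an exact permutation test cannot give a p below 0.1, so single genes were tested only through the fit across all genes.

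These values are of bulk sorted cells, in which fewer cells of a type and less RNA per cell cannot be told apart. Macrophage markers moved with the members. The mean level of the 20 macrophage markers measured was 7.23 to 7.65 on the GMP KO arrays, against 5.89 to 5.93 in GMP WT, and 6.06 to 6.77 on the LSK KO arrays, against 5.51 to 5.72 in LSK WT. Of these 20, 11 rose and 0 fell in GMP (55% passed, against 16.1% of all genes). In LSK 5 rose and 0 fell (25%, against 4.44% of all genes), and 9 rose there without replicate 1 of GMP KO. Of the 20 markers, 7 are also in another list used here. In WT, 7 of the 20 lay above the gene median in GMP and 5 in LSK.

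The defining macrophage markers did not move alike. Cd68, a lysosomal membrane glycoprotein of macrophages, was 11.88, 11.81 and 12.25 in GMP KO, against 9.07, 9.12 and 9.15 in GMP WT, a rise of 2.87 (SE 0.21), and rose by 2.27 (SE 0.21) in LSK. Adgre1, a surface receptor that marks mouse macrophages, was 6.58, 7.66 and 7.77 in GMP KO, against 6.84, 6.89 and 6.62 in GMP WT, and these overlapped (0.56, limma adjusted p = 0.160). Csf1r, the receptor for M-CSF, was 8.40, 9.51 and 9.49 in GMP KO, against 9.20, 9.28 and 9.18 in GMP WT (-0.09, limma adjusted p = 0.888), and Cd163, the haemoglobin scavenger receptor, was 5.84 to 6.14 in GMP KO, against 6.27 to 6.43 in GMP WT (-0.35, limma adjusted p = 0.0604). The part of these markers in the results was not tested.

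Markers of the sorted populations also moved with the LSK results. The mean level of 12 GMP markers was 8.92 to 9.37 on the LSK KO arrays, against 7.76 to 8.49 in LSK WT. Of these, 5 were higher and 0 lower in KO (41.7% passed, against 4.44% of all genes). The mean of 10 LSK markers was 8.98 to 9.21 in LSK KO, against 9.35 to 9.42 in LSK WT, with 0 higher and 2 lower (20% passed). Both lists thus lay nearer to GMP in LSK KO than in LSK WT. Their part in the LSK changes of Gas6, Mertk and the other genes was not tested.

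In LSK, Adgre1 was 5.54, 6.05 and 5.73 in KO, against 5.21, 5.11 and 4.89 in WT (0.70, limma adjusted p = 0.153), and Csf1r was 6.95, 7.91 and 7.33 in KO, against 6.82, 6.38 and 6.27 in WT (0.90, limma adjusted p = 0.0984). Cd163 was 6.43, 6.45 and 6.38 in LSK KO, against 6.53, 6.90 and 6.52 in LSK WT (-0.23, limma adjusted p = 0.375). Replicate 2 of LSK KO was highest for Adgre1, Csf1r, Cd68 and Cd163, and for Mertk, Axl, Stab1 and Tyro3. Gas6, Pros1 and Timd4 were highest on replicate 3 of LSK KO, and Mfge8 was lowest on replicate 2 (8.87, against 9.37 and 9.34). Monocyte markers gave 5 higher and 0 lower of 9 in LSK (55.6% passed), and 3 higher and 4 lower in GMP (77.8%). Of 11 endothelial and stromal markers, the other cells known for Stab1, 1 rose and 0 fell in GMP and 0 rose and 1 fell in LSK. That is 9.09% in each, where 16.1% of all genes passed in GMP and 4.44% in LSK.

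**Figure D3:**
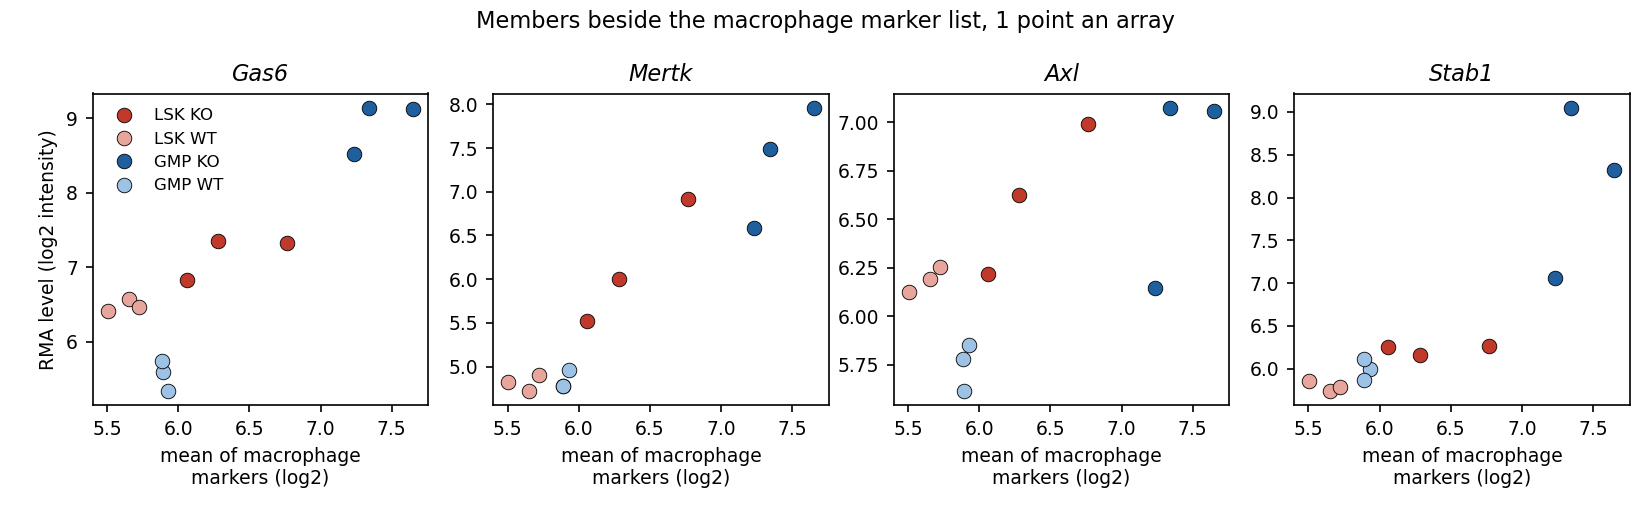
Log2 level of Gas6, Mertk, Axl and Stab1 on each array (y axis, with its own scale in each panel) against the mean level of the macrophage markers (x axis, log2). The GMP KO arrays lie at 7.23 to 7.65 on the x axis and above the GMP WT arrays in each panel.

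For each member whose 4 group means spanned at least 1, the 3 most alike genes were those with the highest Pearson correlation over the 12 arrays, as a description of arrays that share their groups. Gas6 was most like Npc1 (r = 0.985), the lysosomal cholesterol exporter, Emp1 (0.975) and Eno2 (0.974). Mertk was most like Mgll (0.995), a monoacylglycerol lipase, Cdo1 (0.991), which oxidises cysteine, and Apobec1 (0.986), a cytidine deaminase. Stab1 was most like Cadm1 (0.972), Ms4a4a (0.958) and Cd200r2 (0.957). Axl was most like Idua (0.959), a lysosomal hydrolase, Camk1 (0.957) and P2ry13 (0.942), and Mfge8 was most like Tespa1 (0.971), Cd244a (0.969) and Klhl24 (0.962). Among the members themselves, Gas6 and Mertk had an r of 0.92, Mertk and Axl 0.87, and Gas6 and Stab1 0.86.

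Of all genes, 16.1% passed in GMP and 4.44% in LSK, and the counts of the lists below are to be read beside these shares. Of 5 genes that carboxylate the ligands or shed the receptors, 1 passed in GMP (20.0%) and 0 in LSK, which is near the share of all genes. That gene was Adam10, a protease that sheds membrane proteins, which fell by 0.33 (SE 0.11, limma adjusted p = 0.0480) to 9.05 ± 0.17 in GMP KO, against 9.38 ± 0.12 in GMP WT (SD, n = 3 each), and the call was lost when any of 9 of the 12 arrays was left out. The median of the 5 genes was -0.23 in GMP and 0.01 in LSK.

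Of 29 other receptors and bridging proteins for dead cells, 11 rose and 3 fell in GMP (48.3% passed, median 0.27), and 9 rose and 1 fell in LSK (34.5%, median 0.41). C1qb and C1qc, chains of the complement protein that coats dying cells, rose by 4.26 (SE 0.36) and 4.83 (SE 0.36) in GMP and by 2.20 each (SE 0.36) in LSK. Cd300lf, a phospholipid receptor of myeloid cells, rose by 3.68 (SE 0.32) in GMP, with 9.07 ± 0.12 in KO and 5.39 ± 0.23 in WT (SD, n = 3 each), and by 2.07 in LSK. Cd300a, an inhibitory receptor for phosphatidylserine and phosphatidylethanolamine, rose by 1.44 (SE 0.16) in GMP, and Itgb3, a partner of αv integrin that binds Mfge8, rose by 0.82 (SE 0.13) in LSK. The count in LSK was 6 without replicate 2 of LSK KO or replicate 3 of LSK WT.

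The genes of this list that fell, named after their values were seen, were Scarf1 in LSK (-0.83) and Olr1 (-0.88), Calr (-0.40) and Cd300lb (-0.55) in GMP. Cd300lb, an activating receptor, had opposite signs in the 2 cell types. It averaged 6.72 ± 0.28 in GMP KO and 7.26 ± 0.11 in GMP WT, and 6.21 ± 0.17 in LSK KO and 5.56 ± 0.17 in LSK WT (SD, n = 3 each), and its interaction was 1.19 (SE 0.20, limma adjusted p = 0.00476). Its call in LSK was lost without replicate 1 or 2 of LSK KO or replicate 2 or 3 of LSK WT, and its call in GMP without replicate 3 of GMP KO or replicate 2 or 3 of GMP WT.

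Of 17 measured genes that attract or hold off phagocytes or expose phosphatidylserine, 6 rose and 3 fell in GMP (52.9% passed) and 1 rose and 0 fell in LSK (5.88%, near the share of all genes), with a median of 0.14 in each. Sirpa, the phagocyte receptor for the do-not-eat-me signal Cd47, rose by 1.24 (SE 0.14) in GMP and by 0.88 (SE 0.14) in LSK. P2ry6, a receptor for UDP released by dying cells, rose by 1.42 (SE 0.24) in GMP. P2ry12 was called as higher there, with 5.47 ± 0.13 in GMP KO and 4.61 ± 0.08 in GMP WT (SD, n = 3 each), both below the highest reading of a deleted gene, so no fold is given. Cx3cr1, the receptor for the find-me chemokine Cx3cl1, fell by 1.00 (SE 0.15) in GMP.

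Of 22 measured genes of engulfment signalling, downstream of the receptors, 2 rose and 1 fell in GMP (13.6% passed) and 1 rose and 1 fell in LSK (9.09%). Tyrobp, the adaptor DAP12, rose by 0.67 (SE 0.13) in GMP and by 1.29 (SE 0.13) in LSK. Dock2, a Rac activator, rose by 0.31 (SE 0.08) in GMP, and Vav3 fell by 0.48 (SE 0.10) there. The Dock2 call was lost without replicate 1 or 3 of GMP WT (highest limma adjusted p = 0.0634). Gulp1 was called as lower in LSK, with 3.91 ± 0.18 in LSK KO and 4.90 ± 0.15 in LSK WT (SD, n = 3 each). Both lie below the highest reading of a deleted gene, so no fold is given, and the gene is absent when the dimmest 30% are left out. Without replicate 2 of GMP KO 5 genes of this list passed in GMP. With quantile normalisation 4 rose and 1 fell there, and with arrays centred on the gene median 1 rose and 3 fell. Of 22 genes of phagosome maturation and digestion, 10 rose and 1 fell in GMP (50% passed, median 0.17) and 10 rose and 0 fell in LSK (45.5%, median 0.37).

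Within that list Npc1 rose by 1.74 (SE 0.12) and Psap, the precursor of the saposins, by 2.16 (SE 0.19) in GMP. The protease genes Ctsd and Ctsb rose by 1.64 (SE 0.15) and 2.05 (SE 0.20) in GMP and by 1.13 (SE 0.15) and 1.44 (SE 0.20) in LSK. Dnase2a, which degrades the DNA of engulfed cells, rose by 1.16 (SE 0.16) in LSK, with 9.17 ± 0.32 in KO and 8.01 ± 0.13 in WT (SD, n = 3 each), and Ctsl rose by 1.41 (SE 0.19) there. The 1 gene that fell in GMP was Ccz1 (-0.38), a subunit of the Rab7 activator, named after its value was seen. Its call was lost without replicate 2 of GMP KO or replicate 1 or 2 of GMP WT.

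Of 16 measured genes of the lipid and metabolic response to engulfed cells, 8 rose and 0 fell in GMP (50% passed, median 0.48) and 2 rose and 0 fell in LSK (12.5%, median 0.17). Apoe, the lipid carrier, rose by 3.36 (SE 0.25) in GMP and by 1.67 (SE 0.25) in LSK. In GMP the nuclear receptor gene Rxra rose by 1.04 (SE 0.12), the cholesterol transporter gene Abcg1 by 0.78 (SE 0.12) and Mylip, a liver X receptor target, by 0.73 (SE 0.12). In LSK the lactate transporter gene Slc16a1 rose by 0.63 (SE 0.11). The count in GMP was 5 without replicate 1 of GMP WT and when only the 6 GMP arrays were fitted.

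Of 9 measured genes of TAM signalling and its interferon feedback, 3 rose and 0 fell in GMP (33.3% passed) and 1 rose and 0 fell in LSK (11.1%). In LSK 2 passed without replicate 1 of GMP KO. Socs3, a cytokine signalling inhibitor, rose by 0.89 (SE 0.18) in GMP and by 1.14 (SE 0.18) in LSK. Ifnar1, the interferon receptor subunit through which Axl acts in dendritic cells, rose by 0.59 (SE 0.10) in GMP, and Hgf, which macrophages secrete after engulfing dead cells, by 1.03 (SE 0.20). The macrophage marker levels given above moved with the lists of receptors, digestion and lipid response as well, and their part in these counts was not tested. The lists share genes: C1qa, C1qb, C1qc, Trem2 and Marco are macrophage markers and in the receptor list. Nr1h3 is a macrophage marker and in the lipid list. For the receptor and lipid lists, moving together is thus in part built in.

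**Figure D4:**
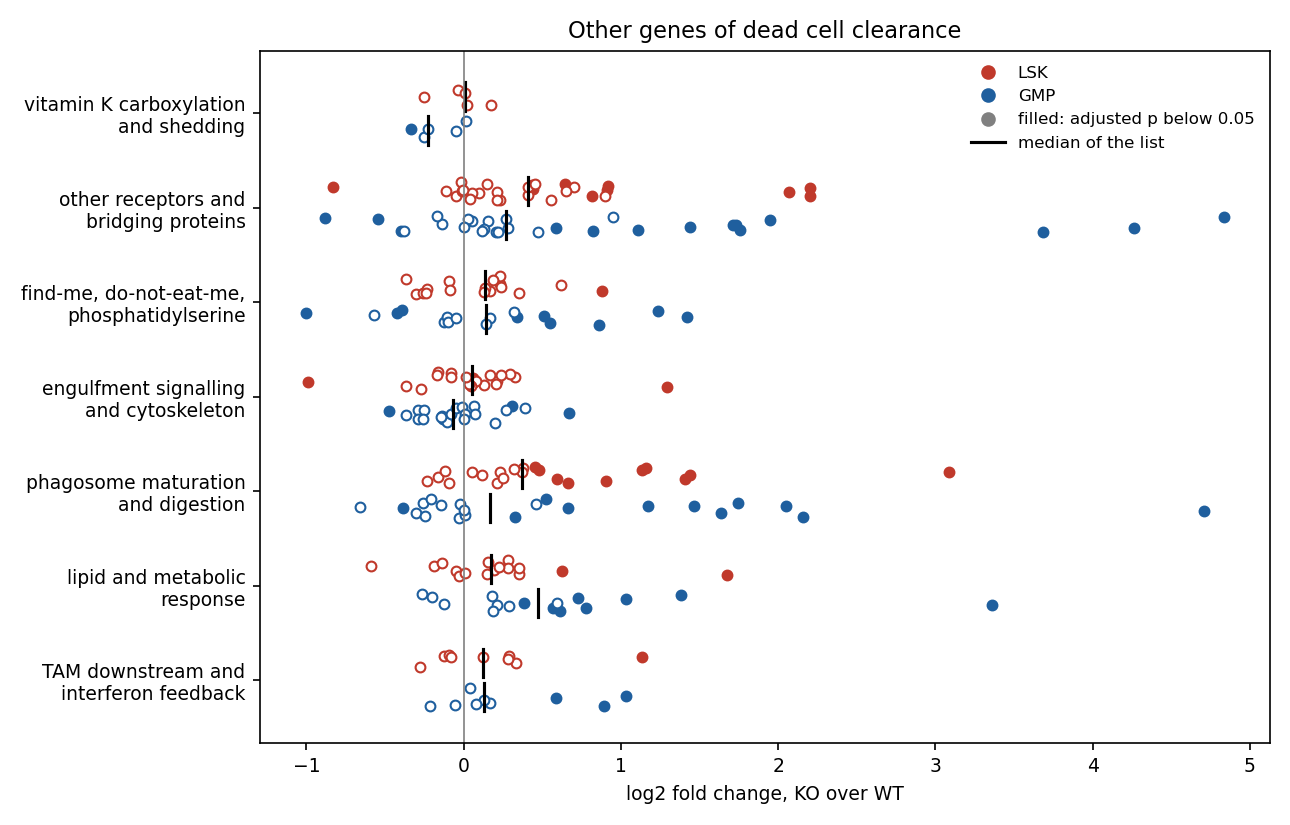
Log2 fold change of KO over WT of each measured gene of the 7 pathway lists, in LSK and in GMP, with the median of each list. The list of lipid and metabolic response had a median of 0.48 in GMP, and that of carboxylation and shedding had -0.23.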

How the data were processed

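RNA of 12 sorted samples was amplified (NuGEN WT-Ovation Pico) and hybridised to Affymetrix arrays. The deposited values were made by the authors with RMA, per the submitters' processing notes, and were read as log2 intensities. RMA corrects background, normalises quantiles and summarises probes, which compresses differences of dim probe sets; the software behind it is not named in the sources used here. Of 34760 probe sets, 22961 were in the annotation used, 21640 had a single symbol and 1321 had several. 21553 were named through gene identifiers in a RefSeq table (GRCm38.p6) and 87 kept the annotation's symbol. The file names no build. Of several probe sets of a gene, that with the highest mean was used (954 genes).

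All 4 groups entered 1 fit of limma 3.58.1 (R 4.3.3; lmFit, eBayes, with 8 residual degrees of freedom and 5.16 prior ones), with two-sided tests, Benjamini-Hochberg adjustment over 19937 genes, and a threshold of 0.05, on deposited values without further normalisation. The fit was tested on simulated data. The number of arrays limits the precision.

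Genes named were the 8 members, up to 4 called genes with the smallest p in each list and cell type, the 3 most alike genes of a member spanning 1 or more, Lamtor2 and 4 macrophage markers. Members and lists were chosen with earlier results of these data known. The 16 lists used comprise the members, 7 pathway lists and 8 marker lists. Same-numbered samples did not deviate together (correlations -0.23 to 0.28), so the numbers were not used as pairs. Alternatives are listed in the closing section. Of promoter windows, 8 of 8 members matched 1 each.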

Additional observations from a re-analysis of the deposited data

Results flagged for a closer look

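The KO effect of Gas6 differed between the cell types, by a test of the difference itself: LSK minus GMP was -2.68 on the log2 scale (limma adjusted p = 1.82e-04), from an effect of 0.68 in LSK and 3.37 in GMP.

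That of Stab1 differed as well, by -1.72 (limma adjusted p = 0.0406), with 0.43 in LSK and 2.15 in GMP. It passed in 9 of 21 alternatives, with a highest adjusted p of 0.104.

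Among the other genes of dead cell clearance, Cd300lb was called in both cell types in opposite directions, 0.65 in LSK and -0.55 in GMP, and its interaction was 1.19 (limma adjusted p = 0.00476).

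With 3 arrays in each group, no test for a single outlying array was made.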

How the results depend on the processing

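Each comparison was repeated under quantile normalisation, centring on the gene median, a filter on the dimmest 30%, the mean of probe sets, trend and robust options, array weights, only the groups compared, a log2 fold change of at least 1 as well, a replicate block (fixed, or random by genotype and number), and each array left out, and, added after the data were seen, with GMP KO 1 and LSK KO 2 left out together. The cause of each change was not tested. In GMP, Gas6, Mertk, Axl and Stab1 passed in all 22 alternatives other than the fold minimum.

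Genes called in LSK were 886, and 1734 with array weights, 1390 with only the groups compared, 182 with the fold minimum and 455 to 1672 with an array left out. The members called there were 2, and 1 with trend and robust, 4 with only the groups compared, 1 with the fold minimum and 0 to 3 with an array left out (0 without GMP WT 1, for example). Genes called in GMP were 3212, and 1778 with only the groups compared, 482 with the fold minimum and 1853 to 3628 with an array left out. For the interaction 1591 genes were called, and 371 with the fold minimum and 800 to 2006 with an array left out. Its members called were 2, and 1 centred or with trend and robust, 4 with array weights or with both arrays out, and 1 to 4 with an array left out (4 without GMP KO 1, 1 without GMP KO 3). For WT LSK against WT GMP 3905 genes were called, and 846 with the fold minimum. Its members called were 2, and 4 with array weights, only the groups compared or both arrays out, 0 with the fold minimum and 2 to 4 with an array left out.

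The fixed replicate block gave 852 genes in LSK and 3073 in GMP, and the random replicate block 886 and 3212. With the fixed block Mfge8 lost its GMP call (adjusted p = 0.0550), and 2 members passed in LSK and 5 in GMP.

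Directions turned only for differences near 0, none past the threshold. In LSK Tyro3 was 0.0078 with quantile normalisation, 0.011 centred and -0.11 to 0.050 with an array left out. In GMP Tyro3 was -0.14 to 0.015 with an array left out, and Timd4 -0.069 with quantile normalisation, -0.068 centred, -0.0039 with array weights, -0.018 with both arrays out and -0.10 to 0.10 with an array left out. In the interaction Mfge8 was -0.027 with quantile normalisation, -0.030 with array weights, -0.014 with both arrays out and -0.18 to 0.31 with an array left out, Timd4 was 0.015, 0.024 centred and -0.17 to 0.032, and Tyro3 was -0.032 to 0.13. In WT LSK against WT GMP Mertk was 0.014 with quantile normalisation and -0.070 to 0.036 with an array left out, Tyro3 -0.044 centred, and Timd4 0.024 with quantile normalisation, 0.010 with array weights and -0.11 to 0.10 with an array left out.

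Scaling moved the share of higher calls in GMP (35.9%, or 45.5% with quantile normalisation and 24.7% centred), in the interaction (66.9%, 54.0% and 80.7%) and in WT LSK against WT GMP (52.4%, 53.2% and 34.3%). Timd4 is among the dimmest 30% and has no value under that filter. Signal near that of a deleted gene limits what can be said of Timd4, Tyro3, Mertk in WT, Gas6 and Axl in GMP WT, and Pros1 in KO.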
